A study of Mus musculus with 6 samples.

Results

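Complement is a cascade of plasma proteins that marks and lyses cells. It can be started through the classical, the lectin or the alternative pathway, which all meet at component C3, and its last steps assemble a pore, the membrane attack complex, that begins when a fragment of component C5 binds component C6. The liver makes most of these proteins, and alveolar type II (ATII) cells, the surfactant-producing cells of the lung alveolus, are also known to make some of them. Transcripts of 5 complement genes were followed here in neoplastic cells of mouse lung tumours: Hc, which encodes C5; C6; C3; C4b, which encodes component C4 of the classical and lectin pathways; and Cfb, which encodes factor B, the protease of the alternative pathway.

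The 5 genes are the matrix rows with these symbols, 5 of 31055 features. They were chosen by their measured levels in the same cells and gates that are compared below, so every level and ratio is a description and none was tested. The cells came from lung tumours initiated with lentiviral Cre and were sorted as tdTomato-positive and negative for CD45, CD31, F4/80 and Ter119, then profiled by 10x 3′ single-cell RNA sequencing, in which each captured transcript copy carries a unique molecular identifier (UMI). All 6 mice, 4 males and 2 females of mixed C57BL/6J:129 background, carried KrasLSL-G12D, Lkb1XTR/XTR and Rosa26LSL-tdTomato, and the labels give 20 weeks of tumour growth and a treatment of 2 weeks before harvest, without saying whether the growth time includes the treatment. The 3 restored mice also carried FLPo-ERT2 at Rosa26 and received tamoxifen at 4 mg, so that FLPo could delete the gene trap that interrupts Lkb1 (gene symbol Stk11) and ends in a GFP sequence. The 3 non-restored mice were 1 with FLPo-ERT2 given vehicle, 1 without FLPo-ERT2 given tamoxifen and 1 without FLPo-ERT2 given vehicle. Because Cre was delivered by virus and both tdTomato and the trap depend on it, only infected cells and their descendants are marked.

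The deposited matrix pools the libraries without naming the mouse of a cell, so it counts as 1 sample, restored and non-restored mice were not compared, and no p-value is given. Of 16017 barcodes, 12183 had at least 500 genes and at most 20% mitochondrial UMIs, with a median of 19348 UMIs (671 to 125731). Gates were set in UMIs per 10000. The ATII gate (Sftpc at least 500, Hopx under 2, Krt8 plus Krt18 under 50) held 6975 cells, of which 3429 had Lyz2 at 100 or more (Lyz2-high) and 3546 had less (Lyz2-low). The ATI gate, for alveolar type I, the flat gas-exchange cell, held 956 cells with Hopx at 15 or more and keratin under 50, and the keratin-high gate held 1183 cells with Krt8 plus Krt18 at 50 or more. Of the markers that the gates did not use, 10 of 10 ATII markers, 10 of 11 ATI markers and 5 of 6 transitional markers were highest in their own gate, with Cav1 highest in endothelial cells and Cdkn1a in the ATI gate. Another 2646 kept cells met none of the gates. Reference gates held 227 fibroblast, 127 endothelial and 79 myeloid cells, and 9 of the 6975 ATII cells also passed a minimum of one of these. Levels are CPM, counts of a gene scaled to a common total: its UMIs in a gate per 1000000 UMIs of that gate. Parentheses after a level, ratio or share hold 95% intervals, which cover counting error and not variation between mice. Those of levels and ratios also leave out the uneven spread of UMIs between cells.

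Hc (ENSMUSG00000026874) lies on chromosome 2, 34983331 to 35061438, minus strand, and C6 (ENSMUSG00000022181) on chromosome 15, 4727175 to 4814967, plus strand, both in GRCm38. C3 (ENSMUSG00000024164), C4b (ENSMUSG00000073418) and Cfb (ENSMUSG00000090231) are all on the minus strand of chromosome 17, at 57203970 to 57228136, 34728380 to 34743882 and 34856374 to 34862518. The exons of Cfb overlap those of the readthrough gene Gm20547 on the same strand, and reads that fit both genes may have been dropped, so Cfb levels are uncertain. C4b has a near-identical copy, C4a, that is not among the features, so C4b levels are uncertain as well. The RefSeq sequence upstream of the transcription start is shown for the 3 members with an entry, because Hc and C6 on the one hand and C3 on the other took different courses between the groups of cells described below. Each runs from 250 to 36 bases before the RefSeq start (GRCm38.p6, 5′ to 3′ on the gene's strand), and capitals mark matches, on either strand, to TTNNGNAA for C/EBP factors, CTCAAG for NKX2-1 and TGTTTNC for FOXA factors, families that include regulators of ATII genes.
Hc, chr2:35061448-35061662, minus strand: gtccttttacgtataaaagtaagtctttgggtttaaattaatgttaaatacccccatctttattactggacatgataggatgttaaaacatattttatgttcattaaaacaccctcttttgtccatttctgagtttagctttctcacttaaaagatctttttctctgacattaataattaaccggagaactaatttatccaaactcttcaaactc
C6, chr15:4726960-4727174, plus strand: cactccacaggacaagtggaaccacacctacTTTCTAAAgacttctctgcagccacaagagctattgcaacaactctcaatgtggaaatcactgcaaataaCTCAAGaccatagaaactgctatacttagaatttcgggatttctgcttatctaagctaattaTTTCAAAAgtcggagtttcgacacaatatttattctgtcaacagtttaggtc
C3, chr17:57228172-57228386, minus strand: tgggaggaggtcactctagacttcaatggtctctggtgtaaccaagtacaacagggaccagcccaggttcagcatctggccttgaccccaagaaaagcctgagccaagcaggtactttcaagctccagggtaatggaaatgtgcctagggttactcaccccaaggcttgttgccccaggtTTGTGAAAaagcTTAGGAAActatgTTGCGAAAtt
The C3 window held 3 places matching TTNNGNAA, at -70 to -63, -58 to -51 and -45 to -38 from the start, the last of them on both strands. In the C6 window this motif matched at -219 to -212 and -87 to -80, and CTCAAG matched at -149 to -144. The Hc window held no match to any of the 3 motifs. Of 32851 windows at the same distance, 33.8% held TTNNGNAA at least once, 11.9% CTCAAG and 15.7% TGTTTNC, so single matches are common, and they are letters in a window rather than bound sites. Windows with 2 or 3 matches were not counted, and a link between the matches and the levels was not tested. The Hc window was the poorest in G and C, at 29.8%, against 38.6% for C6 and 49.8% for C3.

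The terminal pathway gene Hc was the most abundant member. Over all kept cells it stood at 310.6 CPM and ranked 384th of all features, ahead of C3 at 55.4 CPM (2457th) and C6 at 36.3 CPM (3632nd), while C4b at 6.96 CPM and Cfb at 0.626 CPM were low. The ATII gate held most of the UMIs of the first 3 genes. After leaving out the 9 ATII cells with markers of another type, 89.0% of the Hc UMIs, 91.1% of the C6 UMIs and 80.0% of the C3 UMIs lay in it. For scale, the whole gate held 57.3% of the kept cells and 161523452 of their 257163522 UMIs of all genes. C4b differed, with 17.4% of its 1791 UMIs in the ATII gate and 69.6% in the 227 fibroblast cells.

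Hc reached 545.3 CPM (540.4 to 550.2) in Lyz2-high and 314.3 CPM (310.2 to 318.4) in Lyz2-low ATII cells. Its level was 49.2 CPM (45.5 to 53.1) in the ATI gate and 16.3 CPM (14.9 to 17.8) in the keratin-high gate. In the reference cells it was 16.3 CPM (12.5 to 20.9) in fibroblasts, 12.8 CPM (8.23 to 19.1) in myeloid and 9.91 CPM (5.67 to 16.1) in endothelial cells. The 2646 cells outside the gates stood at 168.7 CPM (164.9 to 172.6). The order was thus Lyz2-high ATII, Lyz2-low ATII, the cells outside the gates and ATI, each apart from the next by more than counting error, followed by 4 gates whose neighbours in the order overlapped.

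C6, whose product joins C5b at the start of pore assembly, followed the order of Hc through the neoplastic gates. It stood at 71.9 CPM (70.2 to 73.7) in Lyz2-high ATII, 29.5 CPM (28.3 to 30.8) in Lyz2-low ATII, 4.80 CPM (3.69 to 6.12) in the ATI gate and 0.978 CPM (0.660 to 1.40) in the keratin-high gate. The cells outside the gates had 15.1 CPM (14.0 to 16.3). Fibroblasts were at 14.7 CPM (11.2 to 19.1), above the ATI gate, and myeloid cells at 2.14 CPM (0.583 to 5.48). No C6 UMI was found in endothelial cells, which allows up to 1.86 CPM. The 57 fibroblast UMIs lay in part in few cells, with 36.8% of them in 5 cells.

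C3, the point at which the pathways converge, had a different order. It reached 83.3 CPM (81.4 to 85.2) in Lyz2-high ATII and 55.4 CPM (53.7 to 57.1) in Lyz2-low ATII, but 281.0 CPM (264.5 to 298.2) in fibroblasts and 65.3 CPM (54.2 to 78.0) in myeloid cells. The keratin-high gate stood at 13.2 CPM (12.0 to 14.6) and the ATI gate at 3.97 CPM (2.98 to 5.20), the reverse of the order seen for Hc and C6, and endothelial cells were at 1.86 CPM (0.383 to 5.43). The cells outside the gates had 26.6 CPM (25.1 to 28.2). The fibroblast level was carried by few cells, since 5 of the 227 held 53.4% of its 1086 UMIs and the highest had 212, and 26.9% of fibroblasts had any C3 UMI at full depth.

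C4b and Cfb, which act upstream at the classical and alternative convertases, were low in every neoplastic gate. C4b was at 1.77 CPM (1.501 to 2.07) in Lyz2-high ATII, 2.21 CPM (1.88 to 2.58) in Lyz2-low ATII, 0.600 CPM (0.259 to 1.18) in the ATI gate and 0.359 CPM (0.179 to 0.642) in the keratin-high gate. Fibroblasts had 322.4 CPM (304.7 to 340.8) and myeloid cells 84.0 CPM (71.4 to 98.3). Leaving out the ATII cells with markers of other types changed the ATII level of C4b from 1.97 to 1.93 CPM. Cfb stayed between 0.0749 and 0.464 CPM in the neoplastic gates, against 8.80 CPM (6.09 to 12.3) in fibroblasts, 8.68 CPM (4.74 to 14.6) in endothelial and 5.35 CPM (2.57 to 9.84) in myeloid cells.

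**Figure D1:**
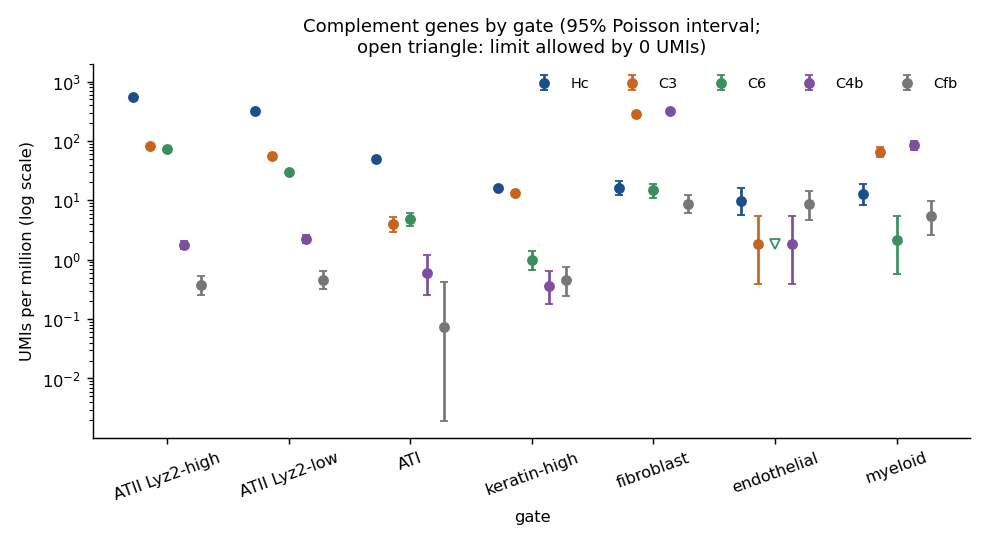
Levels of the 5 complement genes in 7 gates, in CPM on a log axis; points are pooled levels, bars exact Poisson 95% intervals, and the open triangle the limit that 0 UMIs allows. Hc falls from 545.3 in Lyz2-high ATII to 16.3 in keratin-high cells, while C4b is highest in fibroblasts, at 322.4.

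Shares of cells with a UMI were read after each cell was thinned to 5000 UMIs, which left out 203 ATII, 115 ATI, 93 keratin-high, 46 fibroblast, 47 endothelial and 9 myeloid cells. Hc was seen in 82.3% of Lyz2-high ATII cells (81.0 to 83.6) and 59.1% of Lyz2-low ATII cells (57.5 to 60.8), against 96.8% and 76.3% at full depth. The ATI share was 9.51% (7.61 to 11.7). The keratin-high share was 5.60% (4.31 to 7.13), beside 3.87% (1.57 to 7.81) in fibroblasts, 3.75% (0.780 to 10.6) in endothelial and 5.71% (1.58 to 14.0) in myeloid cells, at median depths of 23490, 15873, 9925 and 23994 UMIs. The keratin-high share of Hc therefore did not stand above the shares in cells of other types by more than counting error.

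C6 was seen in 27.7% of Lyz2-high ATII cells (26.2 to 29.3) and 13.5% of Lyz2-low ATII cells (12.3 to 14.7). Its shares were 1.31% (0.655 to 2.33) in the ATI and 0.734% (0.317 to 1.44) in the keratin-high gate. In endothelial cells 0 of 80 had a C6 UMI, which allows up to 3.75% and sets no close bound, while in CPM the ATI gate stood above the endothelial limit. C3 was seen in 32.0% (30.5 to 33.6) and 21.2% (19.9 to 22.7) of the Lyz2-high and Lyz2-low ATII cells and in 22.7% of fibroblasts (16.8 to 29.4). The C3 share was 4.86% (3.66 to 6.31) in the keratin-high gate and 1.07% (0.490 to 2.02) in the ATI gate, against 1.25% (0.0316 to 6.77) in endothelial cells. At full depth, where keratin-high cells were deeper, these shares were 17.5%, 3.24% and 2.36%. The ATI share thus did not stand above that of endothelial cells, and the keratin-high share overlapped it, although the keratin-high level in CPM was above the endothelial one. C4b was seen in 1.00% of ATII cells (0.781 to 1.27) and in 59.1% of fibroblasts (51.6 to 66.4).

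Set against Sftpc, the most abundant ATII transcript, Hc was at 2.84 UMIs per 1000 Sftpc UMIs (2.82 to 2.86) in the ATII gate, 3.35 (1.91 to 5.43) in endothelial cells and 3.82 (2.94 to 4.89) in fibroblasts. It was lower in the ATI gate, at 1.04 (0.959 to 1.12), in keratin-high cells, at 0.847 (0.774 to 0.925), and in myeloid cells, at 1.31 (0.836 to 1.94). The ratio for C3 was 0.455 (0.446 to 0.463) in the ATII gate, 0.686 (0.621 to 0.756) in keratin-high and 0.0836 (0.0626 to 0.109) in ATI cells. Relative to Sftpc, C3 was therefore higher in keratin-high than in ATII cells and Hc was lower. Sftpc itself set the ATII gate and stood at 155328 CPM there against 19250 CPM in keratin-high cells. The order of these ratios thus depends on the gate, and in CPM both Hc and C3 were lower in keratin-high cells. How much of either was free RNA was not tested.

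**Figure D2:**
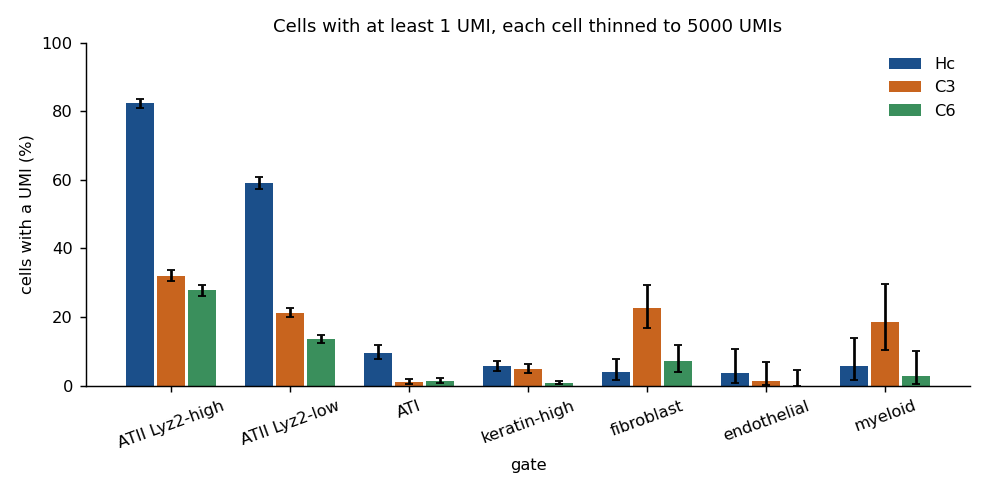
Percent of cells with at least 1 UMI of Hc, C3 or C6 in 7 gates after thinning every cell to 5000 UMIs; bars start at 0 and whiskers are exact binomial 95% intervals. Hc is seen in 82.3% of Lyz2-high and 59.1% of Lyz2-low ATII cells, and C3 in 22.7% of fibroblasts.

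The first comparison asked how the genes differ with Lyz2, the lysozyme gene that ATII cells express, within the ATII gate. All of Hc, C3 and C6 were higher in the Lyz2-high cells. Hc was 1.74-fold higher (1.71 to 1.76), C3 1.504-fold (1.45 to 1.56) and C6 2.44-fold (2.32 to 2.56). C4b, at a ratio of 0.799 (0.637 to 1.00), and Cfb, at 0.805 (0.483 to 1.34), did not differ beyond counting error. At a fold of 2, only C6 among the members was counted as higher, beside 0.169% of 7684 features with at least 10 CPM in a group that were higher and 1.03% that were lower. The median feature had a log2 ratio of -0.19, and relative to it the log2 ratios were 0.99 for Hc, 0.78 for C3 and 1.48 for C6.

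In 6 steps of Lyz2 the levels climbed rather than jumping at the border of 100. Hc stood at 199.0 CPM in ATII cells with Lyz2 under 25, then at 385.3, 425.7, 505.0, 579.9 and 636.6 CPM in the steps that begin at 25, 50, 100, 200 and 400. C6 went from 15.9 CPM through 33.2, 45.2, 57.4 and 84.9 to 101.9 CPM over the same steps. C3 rose from 41.0 CPM through 62.8, 70.1 and 76.4 to 90.6 CPM and was at 87.9 CPM (79.5 to 97.0) in the highest step, within counting error of the step before. Just under the Lyz2 border Hc was thus at 425.7 CPM (417.8 to 433.7) and just over it at 505.0 CPM (498.4 to 511.7). At the Sftpc border of the gate, cells just under it (250 to 500) had 180.0 CPM of Hc (166.9 to 193.9) and cells just over it (500 to 1000) had 262.0 CPM (254.6 to 269.6). There C6 was at 16.3 and 24.5 CPM and C3 at 57.8 and 72.4 CPM.

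**Figure D3:**
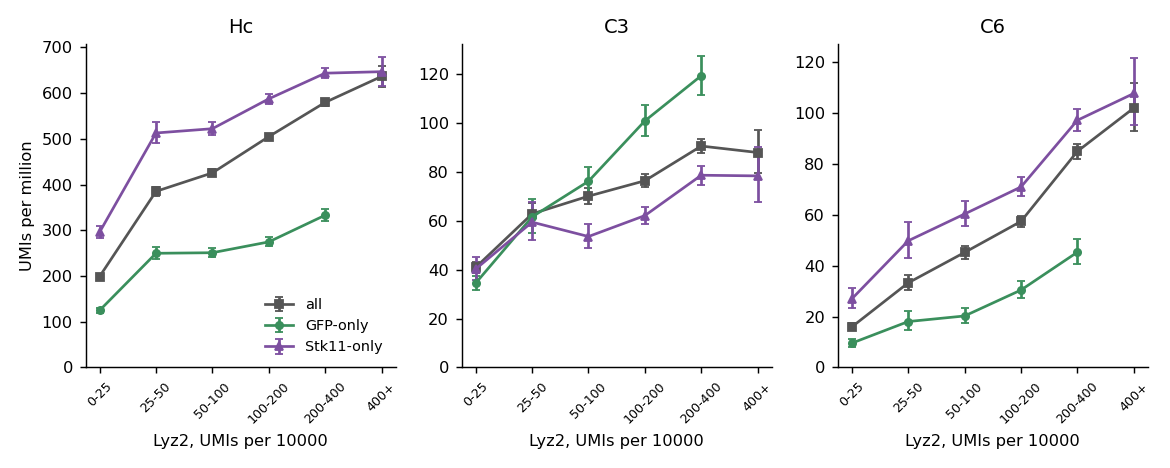
Levels of Hc, C3 and C6 in CPM (linear axes from 0) across 6 steps of Lyz2 in the ATII gate, for all cells, GFP-only cells and Stk11-only cells; bars are exact Poisson 95% intervals, and the GFP-only step of 18 cells is left out. GFP-only cells lie below Stk11-only cells for Hc and C6 at every step drawn, and above them for C3 from a Lyz2 of 25 upward, where the intervals of the step from 25 to 50 overlap.

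The second comparison set the ATII gate against the ATI gate. Hc was 8.95-fold higher in ATII cells (8.29 to 9.68), C6 10.99-fold (8.60 to 14.3) and C3 17.8-fold (13.6 to 23.8). C4b, at 318 against 8 UMIs, was 3.28-fold higher (1.65 to 7.67), and Cfb had 67 UMIs against 1, a ratio of 5.54 (0.960 to 221.9) that rests on the single ATI UMI. The 6 fibroblast marker genes summed to 31.2 CPM in the ATII and 10.0 CPM in the ATI gate. The part of fibroblast RNA in the C4b ratio was not tested. All 3 members that reached 10 CPM were thus at least 2-fold higher in the ATII gate, beside 5.52% of 8309 features that were higher and 11.5% that were lower. When cells weighed equally the log2 ratios rose from 3.16 to 3.95 for Hc, 4.15 to 5.002 for C3 and 3.46 to 4.52 for C6, and with the ATI gate opened to Hopx of 8 that for C3 fell to 3.20.

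Among cells under the keratin border, the levels fell in steps of Hopx, the gene that defined the ATI gate. Hc was at 420.3 CPM with Hopx under 2 and then at 221.8, 82.9, 56.2 and 40.4 CPM in the steps that begin at 2, 8, 15 and 30. C6 went from 50.1 CPM to 20.0, 6.65, 5.34 and 4.11 CPM, and C3 from 68.8 CPM to 25.2, 14.1, 4.54 and 3.25 CPM. Most of the fall of all 3 genes lay below the ATI border of 15. The few ATI cells that held Hc held much of it unevenly, as 14.2% of them had a UMI at full depth and the highest cell had 46.

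The third comparison set the ATII gate against the keratin-high gate. C6 was 53.9-fold higher in ATII cells (37.7 to 79.9), Hc 27.0-fold (24.7 to 29.6) and C3 5.35-fold (4.84 to 5.92). C4b was 5.49-fold higher (3.03 to 11.1), from 318 and 11 UMIs, and Cfb did not differ beyond counting error (0.909, 0.506 to 1.75). Fibroblast markers summed to 31.2 CPM in the ATII and 10.6 CPM in the keratin-high gate, and the part of fibroblast RNA in the C4b ratio was not tested. Again 3 of the 3 members compared were at least 2-fold higher, beside 5.17% of 8369 features that were higher and 14.5% that were lower. The sizes turned on the keratin border: at a border of 30 the log2 ratios were 4.00 for Hc, 4.52 for C6 and 1.79 for C3, against 4.76, 5.75 and 2.42 at 50, and at 100 that of Hc was 5.81. That of C4b was 0.64 at a border of 30, from 317 and 68 UMIs, against 2.46 at 50.

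Along Krt8 plus Krt18, in cells without reference markers, Hc fell from 538.9 CPM under 10 through 216.1, 45.5 and 20.1 CPM to 7.76 CPM (6.08 to 9.76) at 100 or more. C6 fell from 64.6 CPM through 23.3, 4.38 and 1.08 CPM to 0.744 CPM. C3 fell from 70.5 CPM through 50.4 and 21.4 to 13.2 CPM and then held, at 13.3 CPM (11.1 to 15.8). In the highest keratin step C3 was therefore above Hc, whereas in the lowest it was far below it. Set directly against the ATI gate, keratin-high cells had 3.32 times as much C3 (2.49 to 4.52), 0.331 times as much Hc (0.294 to 0.373) and 0.204 times as much C6 (0.128 to 0.319).

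The fourth comparison used the transcripts of the Lkb1 allele itself. A GFP UMI comes from the trapped allele and a Stk11 UMI was taken as the other class, so cells with at least 1 GFP and no Stk11 UMI (GFP-only) were set against cells with at least 1 Stk11 and no GFP UMI (Stk11-only). Only 29 of the kept cells had both. These are classes of what was seen in a cell and not of mice or treatments, and a difference between the classes and one between the mice they came from cannot be told apart. The ATII gate held 1742 GFP-only and 2353 Stk11-only cells, with medians of 25473 and 25078 UMIs, and 2865 cells with neither, which were shallower at 16251 UMIs. Of the GFP-only ATII cells 594 were Lyz2-high, against 1516 of the Stk11-only ones.

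Hc was at 230.6 CPM in GFP-only and 560.3 CPM in Stk11-only ATII cells, that is 2.43-fold lower (2.38 to 2.48) in the GFP-only cells. Sftpc was also lower in the GFP-only cells, at 135749 against 170480 CPM, and its part in the Hc difference was not tested. C6 was at 23.2 and 72.8 CPM, 3.14-fold lower (2.94 to 3.35). C3 did not share this difference and stood at 73.5 CPM against 64.1 CPM, with a ratio of 1.15 (1.10 to 1.20). On the log2 scale the ratio of C3 was 0.20, and relative to the median feature, which was shifted by 0.18, it was 0.02. In GFP-only cells C4b had 0.990 CPM and in Stk11-only cells 2.52 CPM (ratio 0.392, 0.277 to 0.547), a difference that lay beside unequal levels of fibroblast markers, whose 6 genes summed to 21.4 CPM in GFP-only and 57.8 CPM in Stk11-only cells. The part of fibroblast RNA in it was not tested. Cfb had 4 UMIs against 45 (ratio 0.117, 0.0306 to 0.322), but among cells of 10000 to 30000 UMIs it had 0 against 3, too few to give a direction. Of the 3 members compared, 2 were at least 2-fold lower in GFP-only cells and 0 higher, beside 0.558% of 7709 features that were lower and 1.96% that were higher.

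The classes were therefore also set side by side within the Lyz2-high and the Lyz2-low cells. In Lyz2-high cells Hc was at 303.9 CPM in GFP-only, 617.9 CPM in Stk11-only cells and 593.0 CPM in cells with neither. In Lyz2-low cells the 3 values were 185.0, 440.6 and 368.4 CPM. In both Hc was thus lowest in the GFP-only cells, 2.03-fold below the Stk11-only ones (1.98 to 2.09) in Lyz2-high and 2.38-fold (2.30 to 2.46) in Lyz2-low cells.

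C6 showed the same order. It was at 37.6, 85.5 and 74.0 CPM in the GFP-only, Stk11-only and neither cells of the Lyz2-high gate and at 14.3, 46.5 and 34.2 CPM in the Lyz2-low gate. The GFP-only level was 2.27-fold lower (2.10 to 2.47) in Lyz2-high and 3.25-fold lower (2.90 to 3.66) in Lyz2-low cells. C3 went the other way in Lyz2-high cells, at 108.4 CPM in GFP-only, 70.9 CPM in Stk11-only and 85.6 CPM in neither cells, a GFP-only over Stk11-only ratio of 1.53 (1.44 to 1.62). The shift of the median feature was not computed within these cells. Sftpc was at 153373 CPM in the GFP-only and 177644 CPM in the Stk11-only ones. In Lyz2-low cells C3 was at 51.8, 49.995 and 64.8 CPM, and the ratio of 1.04 (0.957 to 1.12) did not differ from 1 beyond counting error. The C3 ratios in Lyz2-high and Lyz2-low cells lay apart by more than counting error.

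Read the other way, the rise with Lyz2 was present in every class. From Lyz2-low to Lyz2-high, Hc rose 1.64-fold in GFP-only (1.58 to 1.71), 1.40-fold in Stk11-only (1.37 to 1.44) and 1.61-fold in neither cells (1.57 to 1.65). C6 rose 2.63-fold (2.33 to 2.98), 1.84-fold (1.71 to 1.98) and 2.16-fold (1.99 to 2.35). For C3 the rise was 2.09-fold (1.96 to 2.24) in GFP-only, 1.42-fold (1.32 to 1.53) in Stk11-only and 1.32-fold (1.24 to 1.41) in neither cells. In finer steps, Hc of GFP-only cells was 124.9 CPM with Lyz2 under 25 and 333.1 CPM with Lyz2 of 200 to 400, against 296.1 and 643.8 CPM in Stk11-only cells. C3 was at 34.5 and 40.3 CPM in the GFP-only and Stk11-only cells of the lowest step, with overlapping intervals, and at 119.3 and 78.6 CPM in the step from 200 to 400.

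**Figure D4:**
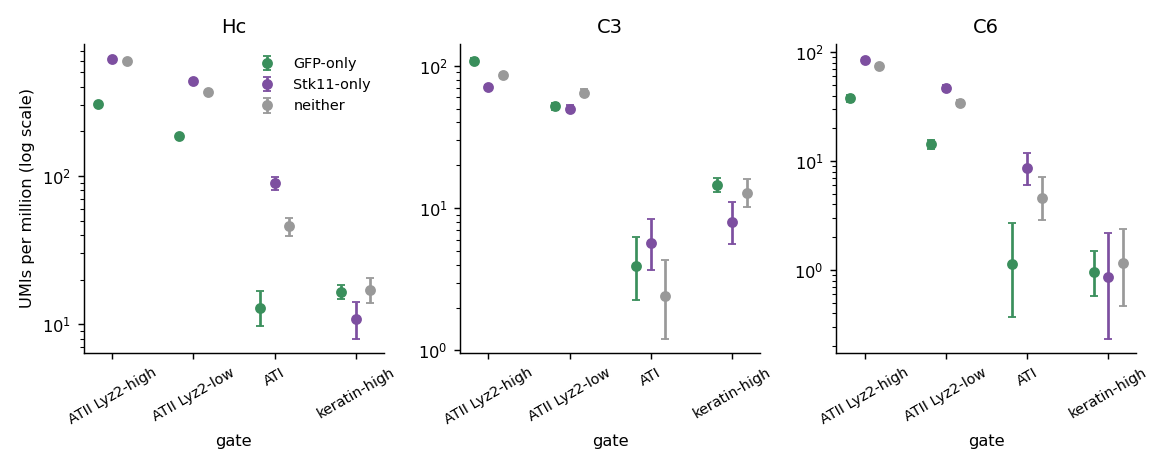
Levels of Hc, C3 and C6 in CPM (log axes) in 4 gates for GFP-only, Stk11-only and neither cells, with exact Poisson 95% intervals. Hc in the ATI gate is 12.8 in GFP-only and 89.3 in Stk11-only cells, and C3 is higher in GFP-only cells of the Lyz2-high ATII and keratin-high gates.

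In the ATI gate the difference in Hc was wider. Hc was at 12.8 CPM (9.70 to 16.7) in 242 GFP-only and 89.3 CPM (80.7 to 98.5) in 266 Stk11-only cells, 6.95-fold lower (5.25 to 9.37). These UMIs lay in 18 of the GFP-only and 62 of the Stk11-only cells, with up to 18 and 31 in 1 cell. The fold therefore rests on few cells. Over all 242 GFP-only and 266 Stk11-only cells, Sftpc was at 39773 and 62157 CPM and Lyz2 at 295 and 1584 CPM. Both ATII transcripts thus differed in the same direction as Hc, and their part in the Hc difference was not tested. C6 had 5 and 38 UMIs, 7.51-fold lower (2.95 to 24.5), and C3 17 and 25 UMIs, a ratio of 0.688 (0.349 to 1.33) that did not differ from 1 beyond counting error. The GFP-only level of Hc in the ATI gate lay within the range of the reference cell types.

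Keratin-high cells did not repeat the direction of Hc. There Hc had 16.6 CPM in 642 GFP-only and 10.8 CPM in 165 Stk11-only cells, giving a ratio of 1.54 (1.14 to 2.12). The UMIs lay in 101 of the GFP-only and 22 of the Stk11-only cells, with up to 31 and 6 in 1 cell. The ratio therefore rests on few cells and gives no firm direction. How much of these low levels was free RNA was not tested. C3 had 14.5 CPM against 7.97 CPM, giving a ratio of 1.82 (1.29 to 2.64), and C6 had 19 and 4 UMIs (ratio 1.11, 0.369 to 4.49).

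The balance between members shifted accordingly. In Lyz2-high ATII cells there were 8.71 Hc UMIs for each C3 UMI (8.39 to 9.05) in Stk11-only and 2.80 (2.66 to 2.95) in GFP-only cells. Hc and C6 kept closer to each other, at 7.23 Hc UMIs for each C6 UMI (6.98 to 7.48) in Stk11-only and 8.08 (7.46 to 8.76) in GFP-only cells. In Lyz2-low ATII cells Hc to C3 was 8.81 (8.26 to 9.41) and 3.57 (3.37 to 3.78), and Hc to C6 was 9.48 (8.87 to 10.2) and 13.0 (11.7 to 14.4). C3 outnumbered C6 2.88-fold (2.64 to 3.15) in Lyz2-high GFP-only cells and was below it, at 0.830 (0.790 to 0.871), in the Stk11-only ones.

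Across the 8 strata formed by the 4 gates and the GFP-only and Stk11-only classes, each gene was ranked by the Pearson correlation of log2(CPM + 1) with Hc, C3 or C6 among 9079 genes. The gene most like Hc was C6 and the gene most like C6 was Hc (r = 0.99 over 8 strata of 1 pooled sample). Next to Hc came Socs2 (0.99), a suppressor of cytokine signalling, and Zfp36 (0.99), an RNA-binding protein that destabilizes transcripts. Next to C6 came Bex2 (0.99) and Selenos (0.99), a selenoprotein of the endoplasmic reticulum. The genes most like C3 were Dhrs7 (0.99), a dehydrogenase, Spry4 (0.99), an inhibitor of receptor tyrosine kinase signalling, and Gjb1 (0.99), a gap junction protein, each highest, like C3, in Lyz2-high GFP-only ATII cells. Hc and C3 had an r of 0.84 and C3 and C6 one of 0.83, and with 8 strata that share gates many genes reach high values.

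Of 6772 ATII cells thinned to 5000 UMIs, 6.01% had a UMI of all of Hc, C3 and C6, 27.6% of 2 of them, 44.8% of 1 and 21.6% of none. In Lyz2-high ATII cells 8.31% had all and 9.96% none, against 3.70% and 33.3% in Lyz2-low ones. Spearman's rho over these cells was 0.27 for Hc and C6, 0.13 for Hc and C3 and 0.08 for C3 and C6, weak values in sparse counts from which nothing is read. The upper range of Hc was wide, with a median of 4.93 UMIs per 10000 in Lyz2-high ATII cells, a 95th percentile of 16.3 and a highest count of 90 in 1 cell.

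Most other genes of the complement list stayed under the 10 CPM used for comparison. The list held 55 genes, 54 of them among the features, and 8 reached 10 CPM in a group of each comparison: Hc, C3, C6, Clu, Cpn1, Cd55, Cd59a and Cr1l. No gene of the classical pathway, the lectin pathway or the receptors reached 10 CPM in the ATII, ATI or keratin-high gate. Some were still counted, among them C1ra with 929 UMIs at 5.75 CPM and Mbl1 with 625 UMIs at 3.87 CPM in the ATII gate. In fibroblasts 4 of 9 classical pathway genes did, and in myeloid cells 5 of 9 classical pathway genes and 4 of 9 receptors.

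Between Lyz2-high and Lyz2-low ATII cells, 1 of the 8 genes was at least 2-fold higher in Lyz2-high cells (C6) and 1 lower. The lower one was Clu (ENSMUSG00000022037; chromosome 14, 65968483 to 65981547), which encodes clusterin, an inhibitor of pore assembly, at 235.9 against 472.2 CPM, 2.00-fold lower (1.97 to 2.04), at the edge of the fold used and short of it under 6 of the alternatives. Since Hc, C3 and C6 were chosen by their levels in these cells, the 5 other genes are also given apart: 0 were higher and 1 lower, and their median log2 ratio was -0.07, against 0.16 with the members and -0.19 over all features compared. Against the ATI gate 4 of the 8 were higher in ATII cells and 2 lower, but 3 of the 4 were members. Of the other 5 genes 1 was higher and 2 lower, with a median of -0.58, against 0.62 with the members and -0.38 over all features. The gene that was higher beside the members was Cpn1 (ENSMUSG00000025196; chromosome 19, 43956307 to 43986556), the catalytic subunit of the carboxypeptidase that inactivates complement anaphylatoxins, at 24.3 against 9.97 CPM, 2.44-fold (2.05 to 2.92). Clu, at 343.1 against 1377 CPM, was 4.01-fold lower (3.95 to 4.08). Cd59a (ENSMUSG00000032679; chromosome 2, 104095801 to 104115354), a membrane inhibitor of pore assembly, was 2.03-fold lower (1.88 to 2.20), at the edge of the fold used and short of it under 4 of the alternatives.

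Against keratin-high cells 4 of the 8, again 3 of them members, were higher in ATII cells and 1 was lower. Of the other 5 genes 1 was higher and 1 lower, with a median of -0.54, against 0.97 with the members and -0.39 over all features. Cpn1 was 5.57-fold higher (4.69 to 6.66), and Clu, at 343.1 against 6348 CPM, was 18.5-fold lower (18.3 to 18.7). Between the transcript classes in the ATII gate, 1 was higher in GFP-only cells and 2, Hc and C6, were lower. The 5 other genes had a median of -0.01, against -0.05 with the members and 0.18 over all features. The higher gene was Cd59a, at 37.5 against 18.8 CPM, 2.00-fold (1.86 to 2.16), at the edge of the fold used and short of it under 12 of the alternatives. Clu had a ratio of 1.06 (1.04 to 1.08), which ranged from 0.814 to 1.49 over 17 alternatives and so gives no direction.

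**Figure D5:**
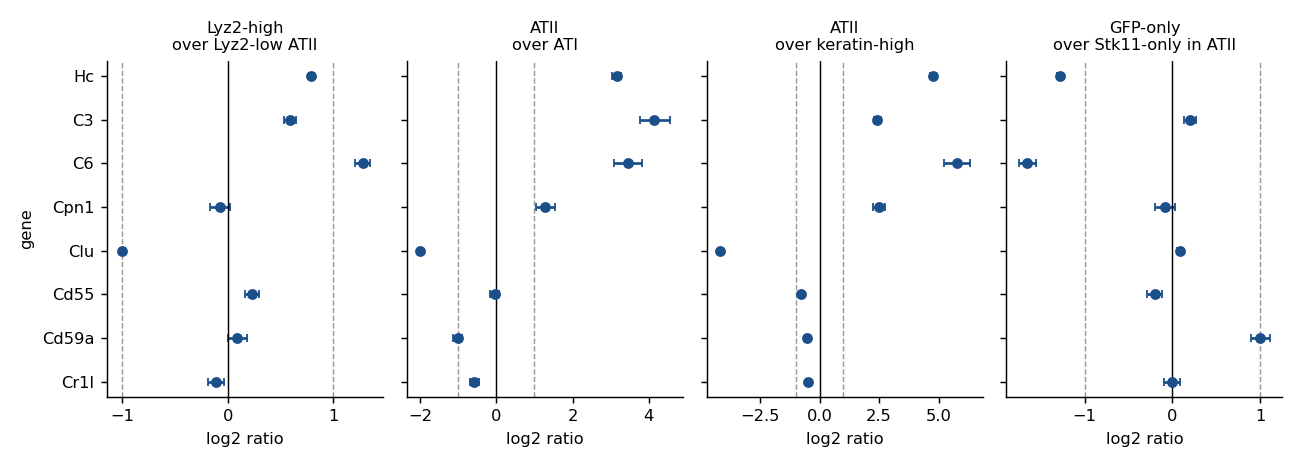
Log2 ratios of the 8 complement genes that reached 10 CPM, in 4 comparisons with an axis each; points are ratios of pooled levels, bars exact conditional 95% intervals, the solid line no difference and dashed lines 2-fold. Hc and C6 lie to the right in the first 3 panels and to the left in the last, where C3 lies near 0.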

How the data were processed

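Per the labels, the authors used Cell Ranger 3.0.2 with the mm10 build, and the deposited values are whole-number UMI counts for each gene in each cell, not normalized. The deposited matrix gives no mouse for a cell. The complement genes, gates and gene lists were chosen with earlier results of these data known. Named genes were the 5 members, complement-list genes at least 2-fold apart at 10 CPM or more in 1 of the 2 groups, and for Hc, C3 and C6 the 3 genes most like each over 8 strata. Levels were UMIs per 1000000 of the summed UMIs of a gate, so deep cells weigh more. Intervals at 95% were exact Poisson for levels, exact conditional binomial for ratios and exact binomial (Clopper-Pearson) for shares, and a count of 0 was given the limit of 3 counts. PCR duplicates are collapsed by UMI, and a 3′ count does not scale with transcript length. No doublet caller was run, and leaving out the 6% of cells with the most UMIs was one alternative. Reference gates used collagen (20 UMIs per 10000), endothelial (10) and myeloid (10) markers. The ratio computation was tested on simulated data. Coordinates came from GENCODE M21 (GRCm38, the assembly that mm10 names) and upstream sequence from RefSeq (GRCm38.p6). Promoter entries matched 3 of the 5 members. Tools were Python 3.11.15 with scipy 1.17.1, numpy 2.4.6, matplotlib 3.10.9 and pandas 2.3.3. Alternatives changed the cell filters, gate borders, weighting, depth, denominator, fold, CPM minimum and class definition.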

Additional observations from a re-analysis of the deposited data

How the results depend on the processing

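None of the 180 log2 ratios of Hc, C3 and C6 under the alternatives changed sign and 86 moved beyond the counting interval, but that of C3 between the transcript classes, 0.20, came to 0.02 relative to the median gene and 0.05 in Lyz2-low cells, which gives no direction. In the neoplastic gates Cfb and C4b were under 10 CPM. Among cells of 10000 to 30000 UMIs Cfb had 0 UMIs in GFP-only and 3 in Stk11-only cells and 8 in ATII and 0 in ATI cells, so that its log2 ratios there, 0.42 in place of -3.09 and -1.81 in place of 2.47, hold the 3-count limit for the 0 and give no direction. The ratio of Cfb between ATII and keratin-high cells, -0.14, became 0.15 with a denominator without surfactant genes and Lyz2 and 0.25 relative to the median gene. Between Lyz2-high and Lyz2-low cells that of Cfb, -0.31, became 1.80 after thinning, from 7 and 2 UMIs, and 0.02 with Sftpc at least 1000, and that of C4b, -0.32, became 0.04 with a split at 50. Of 228 counts of genes under alternatives, 193 stayed within 1.5 times. The number of members at least 2-fold apart between Lyz2-high and Lyz2-low cells, 1, became 2 with a split at 50, 3 at a fold of 1.5 and 0 at a fold of 3, and so did the number of complement-list genes higher there. The count of list genes lower there, 1 (Clu), was 0 with Sftpc at least 1000, a keratin border of 30, equal weights, thinning, a denominator without surfactant genes and Lyz2, values relative to the median gene, or a fold of 3. Against ATI cells the 2 list genes lower in ATII became 1, without Cd59a, with Hopx at least 8, a keratin border of 30, that denominator, values relative to the median gene or a fold of 3. Against keratin-high cells the 1 lower gene became 2 at a keratin border of 100 or a fold of 1.5. Between the transcript classes the 2 members and 2 list genes that were lower became 1 at a fold of 3, and the 1 higher gene, Cd59a, became 0 under 13 of the alternatives, the filters, borders, weights and depth among them. The cause of these changes was not tested. Low counts limit Cfb and C4b in the neoplastic gates, and the single pooled sample gives no spread between mice. No paired analysis was possible because the cells carry no mouse or replicate number.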
